A study of Mus musculus with 4 samples.

Results

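Immediate early genes are transcribed within minutes of a stimulus, without prior protein synthesis. The 10 described here are Fos, Fosb, Junb, Egr1, Egr2, Egr3, Egr4, Npas4, Nr4a1 and Arc, taken by symbol from the deposited comparison of Eed knockout with wild-type tissue. They are 10 of the 18042 genes in that table, and all 10 were among the 15020 genes tested. In the hippocampus, calcium entry through synaptic receptors and channels activates kinases that act on transcription factors already bound to the promoters of these genes, chiefly CREB and the serum response factor. Most of the proteins made are transcription factors that in turn bind the late response genes, and Arc acts at the synapse itself. In the dentate gyrus, where granule neurons fire sparsely, these transcripts are widely used to mark recently active cells.

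The study sequenced RNA of the dissected dentate gyrus of C57BL/6 mice at postnatal day 14, 2 with Eed conditionally deleted (Eed cKO, written EED cKO in the labels) and 2 wild-type (WT). The Eed protein is a core part of Polycomb repressive complex 2, the enzyme complex that methylates lysine 27 of histone H3. The labels do not name what drives the deletion, the deleted exons, the sex, the litter or the time between removal from the cage and freezing, and the replicates are called biological in the series' design text. Bulk tissue was measured, so fewer cells of a type and less RNA per cell cannot be told apart.

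The deposited values are group means, from which whole read counts of each library were recovered; the libraries are called Eed cKO A, Eed cKO B, WT A and WT B. They held between 17263273 and 17789587 counts, and mitochondrially encoded genes took 5.07% to 6.13% of them. Size factors lay between 0.996 and 1.01, so counts can be read side by side. Eed had 133 and 142 counts in the A and B libraries of Eed cKO, against 251 and 301 in those of WT, and was lower in Eed cKO (limma, log2 fold change -0.98 ± 0.14 (SE), adjusted p = 0.0189). Xist had 3809 counts in Eed cKO A, while no other library held over 11, and the choroid plexus transcript Ttr had 110 counts in WT B and at least 23697 in the others. Prox1, a defining factor of granule neurons, was present in every library, at 863 to 923 normalized counts in Eed cKO and 3350 to 4466 in WT. Markers of CA pyramidal neurons, interneurons, thalamic neurons and choroid plexus were present as well, so the dissected tissue was not granule neurons alone.

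The stretch of DNA just upstream of the start holds some of the response elements through which these genes are switched on. RefSeq windows of 300 bases, from 250 before the start to 50 after it, were matched by symbol and used for 7 of the 10 genes (GRCm38.p6). No window of Egr1, Egr3 or Arc was searched, so the counts below leave these genes out. The windows of Fos, Fosb, Junb and Egr2 are shown because these 4 genes had higher counts in both Eed cKO libraries than in either WT library. That of Egr4 is shown as an Egr family member whose groups overlapped. Capitals mark the motifs found (CGTCA is TGACG read on the other strand), and each line runs 5′ to 3′ on the strand of the gene. Fos lies at chr12:85473640-85473939 (plus strand), Fosb at chr7:19309996-19310295 (minus strand), Junb at chr8:84978699-84978998 (minus strand), Egr2 at chr10:67537619-67537918 (plus strand, the window at its principal start of 5 listed) and Egr4 at chr6:85513540-85513839 (minus strand).
Fos: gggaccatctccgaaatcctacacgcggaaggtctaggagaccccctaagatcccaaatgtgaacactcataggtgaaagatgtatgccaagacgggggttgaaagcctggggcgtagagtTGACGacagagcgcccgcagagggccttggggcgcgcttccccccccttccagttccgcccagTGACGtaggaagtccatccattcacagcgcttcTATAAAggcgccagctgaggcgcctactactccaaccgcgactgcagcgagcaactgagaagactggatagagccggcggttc
Fosb: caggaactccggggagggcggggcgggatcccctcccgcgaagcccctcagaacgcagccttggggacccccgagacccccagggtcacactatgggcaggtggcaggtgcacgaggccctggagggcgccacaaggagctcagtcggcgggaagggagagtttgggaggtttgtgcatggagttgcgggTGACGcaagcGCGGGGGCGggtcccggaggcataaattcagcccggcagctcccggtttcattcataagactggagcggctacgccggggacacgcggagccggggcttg
Junb: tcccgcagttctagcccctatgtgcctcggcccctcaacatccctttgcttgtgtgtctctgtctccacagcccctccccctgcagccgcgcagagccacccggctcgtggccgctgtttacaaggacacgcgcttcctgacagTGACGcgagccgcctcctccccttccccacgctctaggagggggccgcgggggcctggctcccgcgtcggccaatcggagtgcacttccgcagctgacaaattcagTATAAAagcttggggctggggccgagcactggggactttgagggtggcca
Egr2: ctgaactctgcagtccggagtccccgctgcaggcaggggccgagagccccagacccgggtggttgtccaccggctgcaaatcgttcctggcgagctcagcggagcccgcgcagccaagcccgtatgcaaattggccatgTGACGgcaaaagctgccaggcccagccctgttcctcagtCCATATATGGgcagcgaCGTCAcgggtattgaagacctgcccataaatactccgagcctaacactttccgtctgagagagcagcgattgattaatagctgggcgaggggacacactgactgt
Egr4: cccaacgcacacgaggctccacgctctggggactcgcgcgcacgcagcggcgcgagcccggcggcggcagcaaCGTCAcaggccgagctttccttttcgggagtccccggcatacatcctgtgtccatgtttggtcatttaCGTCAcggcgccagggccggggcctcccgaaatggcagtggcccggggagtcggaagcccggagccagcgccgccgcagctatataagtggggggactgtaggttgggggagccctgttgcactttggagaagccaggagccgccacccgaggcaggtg

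Motifs were searched on both strands of these windows and of all 32851 RefSeq windows of that length. TGACG, the core of the cyclic AMP response element (CRE) that CREB binds, stood in the windows of 7 of 7 members and in 20.8% of all windows. The full CRE, TGACGTCA, stood in 0 of 7 and in 1.79% of all. The core of the serum response element was found in the window of 1 member, Egr2, at -72 to -63 with the start as base 0, and in 1.63% of all windows. TATAAA stood in the windows of 2 members, Fos (-33 to -28) and Junb (0 to 5), and in 13.6% of all. RefSeq's start, from which positions are counted, lies 30 bases from the principal GENCODE start for Junb, 6 for Fosb and 345 for Npas4, and at it for the other 4. GCGNGGGCG, the site bound by the Egr proteins themselves, stood in the windows of 2 members, Fosb (-50 to -42) and Nr4a1, and in 5.55% of all. The AP-1 site TGANTCA and the Nr4a1 site AAAGGTCA stood in none of the 7, and in 7.81% and 1.51% of all windows. Both the 4 genes with higher Eed cKO counts and Egr4 therefore hold the TGACG core, which occurs as part of the full CRE wherever that is present. A match gives the letters in the window and says nothing of binding in this tissue. Sequence outside the windows was not searched, so a motif missing from a window may still lie elsewhere at the gene.

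Across the 10 genes, 1 passed the test between genotypes. Egr3 was lower in Eed cKO, at 53.6% of its WT level, while Egr1, the most abundant of the 10 per length, was at 1.04 times its WT level. Fos was at 1.68 times and Fosb at 1.57 times its WT level, and neither passed the test of limma across all genes. The share past an adjusted p of 0.05 was 1 of 10, set beside 6.44% of all 15020 genes tested. In the lower direction it was 1 of 10, set beside 2.9% of all genes, and in the higher direction 0 of 10, set beside 3.54%. Those higher at an unadjusted p under 0.05 in limma were 2, Fos and Fosb, and DESeq2 called 1 higher, Fos, where edgeR called 0. In either direction, 3 of 10 had an unadjusted p under 0.05 in limma, against 24.8% of all genes. The groups did not overlap in 5 of 10, against 56.8% of all genes, a share no higher than among all genes. The median log2 fold change of the 10 was 0.27, with 8 above 0. That of all genes tested was -0.0032, with 7431 of 15020 above 0. With Eed cKO A left out, Egr1, Egr4 and Npas4 fell below 0.

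**Figure D1:**
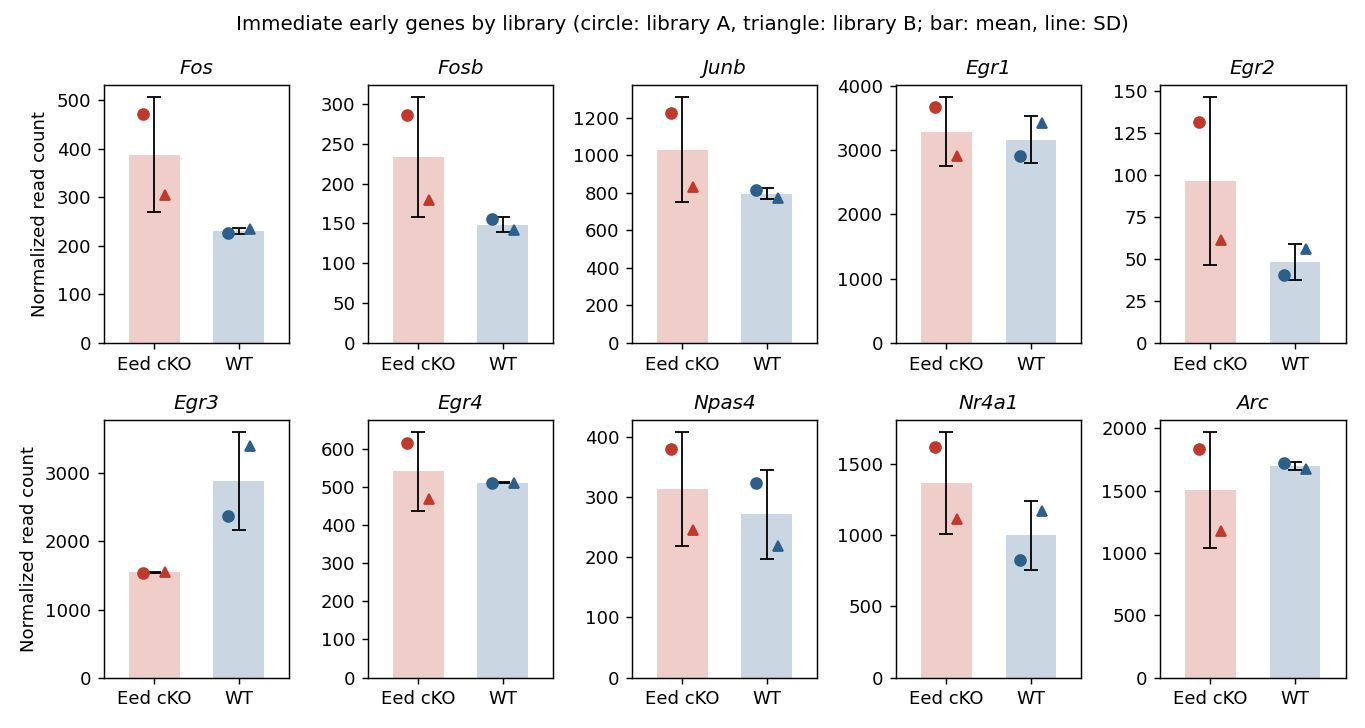
Normalized read count (y axis) of each of the 10 genes in the 2 Eed cKO and 2 WT libraries; circles are library A, triangles library B, bars the group mean and lines the SD over 2 libraries. Egr3 is lower in both Eed cKO libraries (1544 and 1546 counts) than in either WT library (2394 and 3406), and in the other 9 genes Eed cKO A lies above Eed cKO B.

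Egr3 is a zinc finger transcription factor of the early growth response family, induced by activity and needed for muscle spindles in the mouse. The gene (ENSMUSG00000033730) lies on chromosome 14 at 70077203 to 70082614, plus strand (GRCm38, here and below from the GENCODE M21 annotation). It had 1544 and 1546 counts in the A and B libraries of Eed cKO, against 2394 and 3406 in those of WT. The Eed cKO libraries were nearly equal, both lay below both WT libraries, and the spread was in WT. It averaged 1546 ± 8.07 normalized counts in Eed cKO and 2883 ± 723 in WT (SD, n = 2 each; limma, log2 fold change -0.88 ± 0.16 (SE), adjusted p = 0.0356). The 95% interval of that log2 fold change ran from -1.27 to -0.48. The authors' deposited table gives a log2 fold change of -0.90 and an adjusted p of 3.66e-07. A share of 6.96% of its 15043 genes with an adjusted p below 1 had one under 0.05, and Egr3 and Fos were the members among them. The call in limma was kept without WT A (adjusted p = 0.0044) and without WT B (0.0160). It was lost with no filter on low counts (limma, adjusted p = 0.0811) and with Eed cKO A or Eed cKO B left out. In limma every gene lost its call with Eed cKO A or Eed cKO B left out, so that loss is not particular to Egr3 there. In edgeR Egr3 lost its call in the same settings, while some other genes still passed. The log2 fold change of Egr3 lay between -1.13 and -0.62 whichever library was left out in limma.

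Several markers of granule neurons fell in Eed cKO as well. The calls in the marker lists below stand beside 2.9% lower and 3.54% higher among all genes tested. Of 12 markers of mature granule neurons, 7 passed as lower, 1 as higher and 4 did not pass, with a median log2 fold change of -0.70. Their summed normalized count was 9403 and 8915 in the A and B libraries of Eed cKO, against 14173 and 17625 in those of WT. Of 10 markers of immature granule neurons, 5 passed as lower and 0 as higher in limma, and their sum was 27585 and 29061 in the A and B libraries of Eed cKO, against 34067 and 32080 in those of WT. None of these 22 markers was at 0 in any library. Of 12 CA pyramidal neuron markers, 5 passed as higher and 1 as lower, with sums of 32451 and 34642 in Eed cKO and 26349 and 25501 in WT. All 12 interneuron markers had a log2 fold change above 0, of which 2 passed, with sums of 27230 and 26736 in Eed cKO and 20546 and 21243 in WT. Of 12 astrocyte markers 5 passed as lower and 1 as higher, of 9 mural markers 4 as lower and 0 as higher in limma, and of 9 meningeal fibroblast markers 7 as lower and 1 as higher. The part of these cell types in the value of Egr3 was not tested.

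Egr1, the best known of the family and a common readout of neuronal activity, lies on chromosome 18 (ENSMUSG00000038418). It had 3671 and 2891 counts in the A and B libraries of Eed cKO, against 2929 and 3433 in those of WT. Both WT libraries lay between the Eed cKO libraries. Its log2 fold change was 0.05 ± 0.13 (SE; limma, adjusted p = 0.855), with a 95% interval from -0.28 to 0.38. Egr4, which is required for male fertility in the mouse, had 615 and 466 counts in the A and B libraries of Eed cKO, against 515 and 513 in those of WT. The WT libraries were nearly equal and lay between the Eed cKO libraries. Its log2 fold change was 0.07 (95% interval from -0.27 to 0.41; limma, adjusted p = 0.794). The sign of Egr1 turned without Eed cKO A (log2 fold change -0.12 in limma) and without WT A (-0.07), and that of Egr4 turned without Eed cKO A (-0.13).

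Egr2, known as Krox20 and needed for Schwann cell myelination and hindbrain patterning, was the rarest of the 10. It lies on chromosome 10 at 67535475 to 67542188, plus strand (ENSMUSG00000037868). It had 132 and 61 counts in the A and B libraries of Eed cKO, against 41 and 56 in those of WT. Eed cKO A stood apart from the other libraries, and Eed cKO B was within counting error of WT B: the exact 95% Poisson intervals were 46.7 to 78.4 counts and 42.3 to 72.7 counts. Egr2 averaged 96.4 ± 49.8 normalized counts in Eed cKO and 48.2 ± 10.7 in WT (SD, n = 2 each; limma, log2 fold change 0.90 ± 0.39 (SE), adjusted p = 0.219). With Eed cKO A left out the log2 fold change was 0.36, and with Eed cKO B left out it was 1.45.

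Within the family, Egr3 made up 25.9% and 31.1% of the Egr1 to Egr4 counts in the A and B libraries of Eed cKO, against 40.7% and 46.0% in those of WT. The count of Egr3 was 0.421 and 0.535 of that of Egr1 in the A and B libraries of Eed cKO, against 0.817 and 0.992 in those of WT. Both quantities were lower in each Eed cKO library than in either WT library, and a ratio of genes within a library does not depend on its depth. These ratios are per read and not per length, were chosen after the values were seen, and carry no test. They show that Egr3 and Egr1, which are often induced together, stood in unequal proportion in the genotypes.

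**Figure D2:**
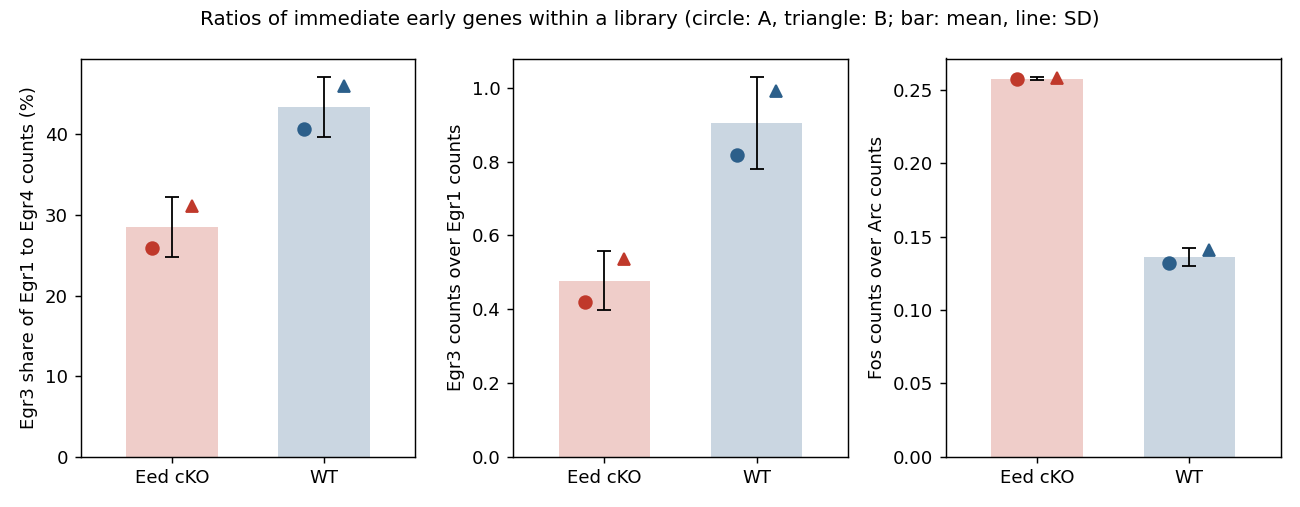
Ratios of read counts within a library, by genotype, with the Egr3 share of Egr1 to Egr4 counts (percent), the Egr3 to Egr1 ratio and the Fos to Arc ratio on the y axes; circles are library A, triangles library B, bars the mean and lines the SD over 2 libraries. The Egr3 share is 28.5 ± 3.71% in Eed cKO and 43.3 ± 3.72% in WT, and the Fos to Arc ratio is 0.258 ± 0.000783 in Eed cKO and 0.136 ± 0.00607 in WT.

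Fos, Fosb and Junb encode subunits of the AP-1 transcription factor, in which a Fos protein pairs with a Jun protein. Fos (ENSMUSG00000021250; chromosome 12, 85473890 to 85477273, plus strand) had 473 and 303 counts in the A and B libraries of Eed cKO, against 229 and 236 in those of WT. Both Eed cKO libraries lay above both WT libraries, and the exact 95% Poisson interval of Eed cKO B, 270 to 339 counts, did not reach that of WT B, 207 to 268 counts. Fos averaged 388 ± 119 normalized counts in Eed cKO and 231 ± 5.86 in WT (SD, n = 2 each), and did not pass in limma (log2 fold change 0.71 ± 0.21 (SE), adjusted p = 0.108). In the authors' deposited table Fos had a log2 fold change of 0.75 and an adjusted p of 0.0304, so its call depends on the test. DESeq2 on the recovered counts gave an adjusted p of 0.0281 and edgeR gave 0.0909. Without Eed cKO A the log2 fold change was 0.40 (limma, adjusted p = 0.362), and without Eed cKO B it was 1.03 (limma, adjusted p = 0.212).

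Fosb, whose truncated splice form is stable and accumulates on repeated stimulation, had 287 and 179 counts in the A and B libraries of Eed cKO, against 157 and 142 in those of WT. It lies on chromosome 7 at 19302696 to 19310051, minus strand (ENSMUSG00000003545), and gene-level counts do not separate the splice forms. The groups did not overlap, but the Poisson intervals of Eed cKO B (154 to 207 counts) and WT A (133 to 184 counts) did. Its log2 fold change was 0.61 ± 0.23 (SE; limma, adjusted p = 0.178), 0.27 with Eed cKO A left out and 0.94 with Eed cKO B left out. Junb, a weaker activator than Jun, had 1231 and 829 counts in the A and B libraries of Eed cKO, against 824 and 777 in those of WT. Eed cKO A stood apart, and Eed cKO B exceeded WT A by a few reads. The log2 fold change was 0.35 ± 0.18 (SE; limma, adjusted p = 0.286), and 0.07 without Eed cKO A. Junb (ENSMUSG00000052837; chromosome 8, 84974484 to 84978718, minus strand) overlaps Prdx2 on the opposite strand, at 84969587 to 84974834. The strand setting of the authors' counting is not given, so reads of the pair cannot be told apart and Junb is uncertain there. Prdx2 had 2955 and 3373 counts in the A and B libraries of Eed cKO, against 3020 and 2885 in those of WT. No other member overlaps an annotated gene.

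Npas4 is a basic helix-loop-helix PAS transcription factor of neurons that responds to calcium influx and regulates inhibitory synapses. It lies on chromosome 19 at 4984355 to 4990316, minus strand (ENSMUSG00000045903), and had 381 and 245 counts in the A and B libraries of Eed cKO, against 326 and 220 in those of WT. Each group spanned most of the range of the other. The log2 fold change was 0.20 ± 0.26 (SE; limma, adjusted p = 0.680), and it was -0.11 without Eed cKO A and -0.08 without WT B. Nr4a1, an orphan nuclear receptor on chromosome 15 (101254269 to 101274795, plus strand; ENSMUSG00000023034), had 1624 and 1110 counts in the A and B libraries of Eed cKO, against 835 and 1174 in those of WT. The groups overlapped, since WT B exceeded Eed cKO B. Its log2 fold change was 0.45 (95% interval from -0.09 to 0.99; limma, adjusted p = 0.273). In limma it was 0.18 without Eed cKO A, 0.72 without Eed cKO B, 0.20 without WT A and 0.70 without WT B.

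Arc is the member that is not a transcription factor: its RNA moves into dendrites, and the protein promotes removal of AMPA receptors from synapses. It lies on chromosome 15 at 74669083 to 74672570, minus strand (ENSMUSG00000022602). Arc had 1839 and 1173 counts in the A and B libraries of Eed cKO, against 1734 and 1678 in those of WT. The WT libraries lay between those of Eed cKO, and Arc averaged 1506 ± 465 normalized counts in Eed cKO and 1695 ± 32.4 in WT (SD, n = 2 each). Its log2 fold change was -0.21 ± 0.20 (SE; limma, adjusted p = 0.563), and it was 0.11 without Eed cKO B. The Fos to Arc count ratio was 0.257 and 0.258 in the A and B libraries of Eed cKO, against 0.132 and 0.141 in those of WT. Fos and Arc thus kept nearly the same proportion in the Eed cKO libraries although both were higher in Eed cKO A. This ratio too was chosen after its values were seen, and carries no test.

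**Figure D3:**
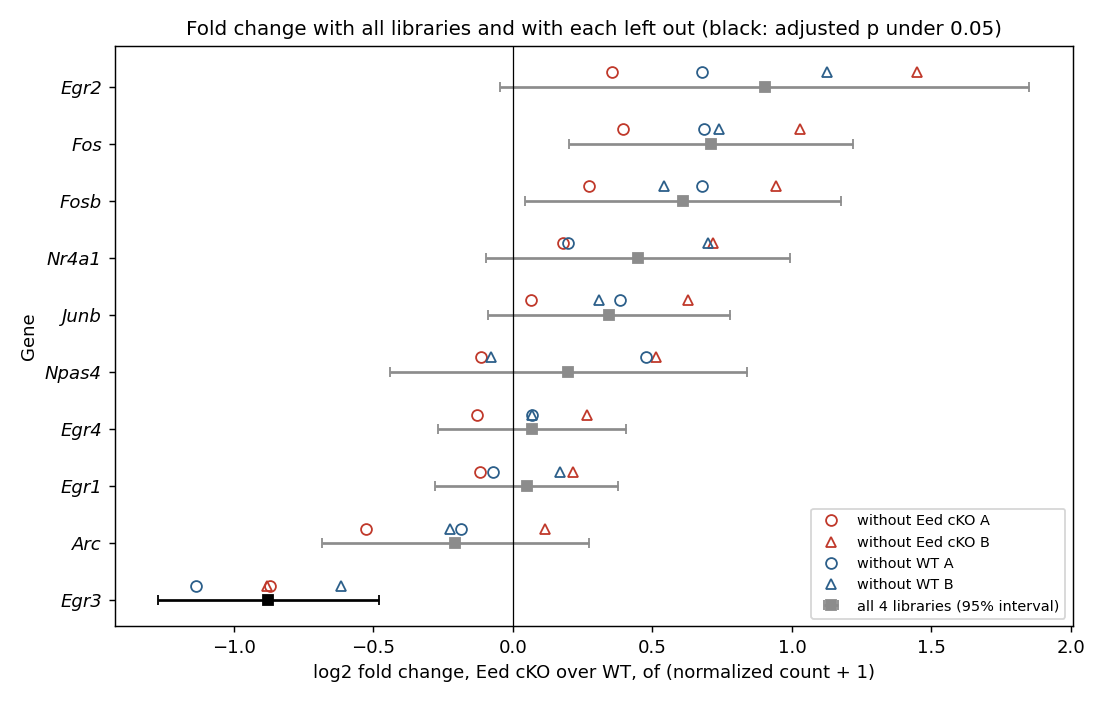
Log2 fold change, Eed cKO over WT, of log2(normalized count + 1) (x axis) for each of the 10 genes (y axis); squares and bars are the limma estimate with its 95% interval over 4 libraries, and open symbols the estimate with the named library left out. Egr3 (black) at -0.88 is the one gene past an adjusted p of 0.05, and leaving out Eed cKO A moves every estimate above 0 towards or past 0, for example Fos at 0.40, set beside 0.71 over 4 libraries.

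The spread inside the Eed cKO group had a common direction. In 9 of the 10 genes Eed cKO A exceeded Eed cKO B, with a median log2 ratio of 0.59 over the 10, whereas 51.7% of all genes tested were above 0 on this ratio and their median was 0.0075. The exception was Egr3, at 0.993 of its Eed cKO B level. The ratio reached 2.15 for Egr2, 1.59 for Fosb, 1.56 for Arc, 1.55 for Fos and 1.55 for Npas4, and was lowest among the 9 for Egr1, at 1.26. In 7 of the 10 genes it lay outside the log2 range of ±0.457 that holds 90% of all genes tested. In WT, 4 of 10 genes were higher in WT A than in WT B and the median log2 ratio was -0.027. Summed over the 9 genes other than Egr3, normalized counts were 10228 and 7283 in the A and B libraries of Eed cKO, against 7520 and 8200 in those of WT. In this sum Eed cKO B lay below both WT libraries and Eed cKO A above both. A sum weighs the genes with the most counts, and single genes differed. Eed cKO B lay above both WT libraries for Fos, Fosb, Junb and Egr2, and below both for Egr4 and Arc. It was level with WT A for Egr1, and lay between the WT libraries for Npas4 and Nr4a1.

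Other measures differed between the Eed cKO libraries. Eed cKO A was the library with 3809 Xist counts. Ddx3y, a Y-linked gene, had 0 counts there, 468 in Eed cKO B, and 562 and 451 in the A and B libraries of WT. By these genes Eed cKO A had a female pattern and every other library a male one, so sex was not balanced between the groups. Summed choroid plexus markers were 37273 and 24852 normalized counts in the A and B libraries of Eed cKO, with 9 of 10 higher in Eed cKO A, and were 35186 and 474 in those of WT. Summed oligodendrocyte markers were 73199 and 62542 in the A and B libraries of Eed cKO, with 11 of 12 higher in Eed cKO A. In the A and B libraries of WT they were 75155 and 73731, so Eed cKO B was the low library there. The part of these differences in the values of the 10 genes was not tested.

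**Figure D4:**
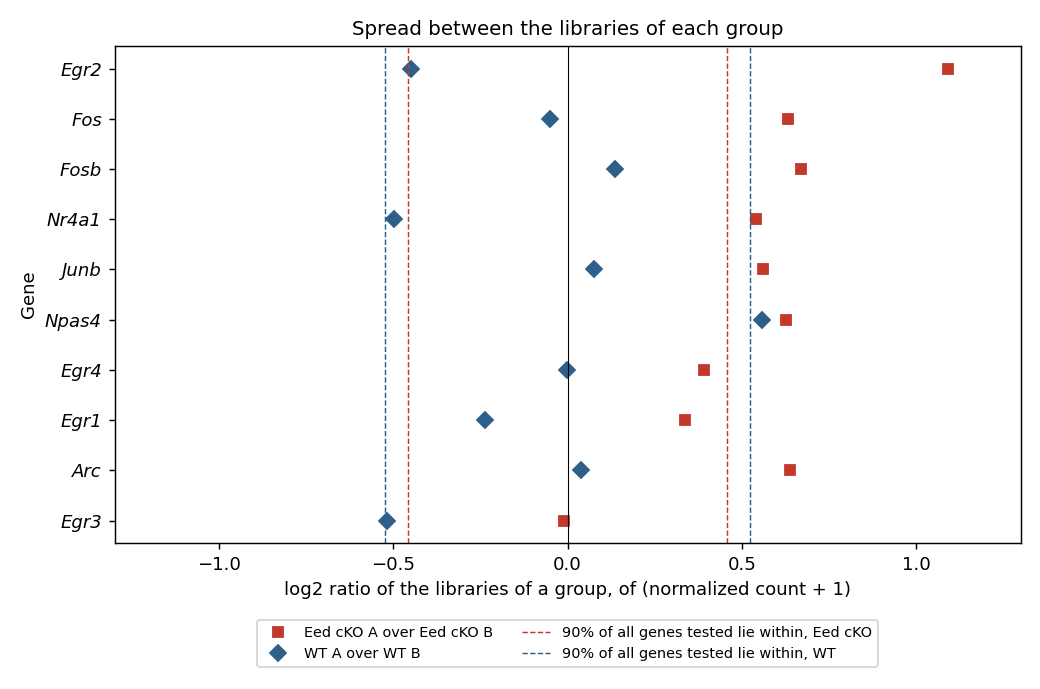
Log2 ratio of library A to library B within each genotype (x axis), of normalized count + 1, for the 10 genes (y axis); squares are Eed cKO, diamonds WT, and dashed lines enclose 90% of all genes tested in that group. In Eed cKO, 9 of 10 genes lie to the right of 0 and Egr3 lies at -0.011, whereas in WT 4 of 10 lie to the right.

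Per length, the levels spanned a wide range, given here as TPM, which divides counts by exon length and scales each library's listed genes to one common total. In Eed cKO the order was Egr1 (147 ± 24.1 TPM), Arc (98.9 ± 30.5), Junb (89.9 ± 24.4), Nr4a1 (78.2 ± 20.5), Egr3 (70.5 ± 0.360), Egr4 (50.5 ± 9.65), Fos (33.1 ± 10.1), Npas4 (15.2 ± 4.61), Fosb (7.50 ± 2.43) and Egr2 (5.70 ± 2.95; SD, n = 2). Among neighbours in that order, the ranges of Arc and Junb overlapped, as did those of Junb and Nr4a1, of Nr4a1 and Egr3, and of Fosb and Egr2. In WT the order was Egr1 (146 ± 16.5 TPM), Egr3 (135 ± 33.5), Arc (114 ± 2.51), Junb (71.4 ± 2.87), Nr4a1 (58.7 ± 14.1), Egr4 (49.1 ± 0.0740), Fos (20.3 ± 0.457), Npas4 (13.5 ± 3.70), Fosb (4.91 ± 0.342) and Egr2 (2.93 ± 0.644; SD, n = 2). There the ranges of Egr1 and Egr3 overlapped, as did those of Egr3 and Arc, and of Nr4a1 and Egr4. Egr3 thus stood in position 5 in Eed cKO and position 2 in WT, and the positions from Egr4 down to Egr2 were the same in both genotypes.

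The median profile of the 10 genes over the 4 libraries, on log2 counts centred per gene, was 0.43 and -0.13 in the A and B libraries of Eed cKO, against -0.14 and -0.12 in those of WT. Among 12303 other genes averaging 50 or more normalized counts, the profiles nearest to it by Euclidean distance over the 4 libraries were those of Rps6ka2 (distance 0.031), Ddc (0.045), Sdsl (0.067), Abcc10 (0.095) and Rps4l (0.097). Rps6ka2, which encodes a ribosomal S6 kinase of the MAP kinase pathway, had 274 and 186 counts in the A and B libraries of Eed cKO, against 188 and 190 in those of WT. In each of the 5 the groups overlapped and no call was made, with limma adjusted p-values of 0.417 to 0.575. Both follow in part from the choice, since Eed cKO B lay level with WT in the median profile.

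Other genes of the activity response were counted in the same fit, in lists chosen with earlier results of these data known. Of 21 other immediate early transcription factors, 2 passed as higher, 0 as lower in limma and 19 did not pass, with a median log2 fold change of 0.05. Fosl2, a further Fos family subunit of AP-1, averaged 1388 ± 44.9 normalized counts in Eed cKO and 721 ± 106 in WT (SD, n = 2 each; limma, log2 fold change 0.95 ± 0.11 (SE), adjusted p = 0.0129). Bhlhe40, a basic helix-loop-helix repressor that also acts in the circadian clock, averaged 1912 ± 64.6 in Eed cKO and 1088 ± 152 in WT (SD, n = 2 each; limma, log2 fold change 0.82 ± 0.11 (SE), adjusted p = 0.0145). Both rose in Eed cKO, with Fosl2 slightly higher in Eed cKO B and Bhlhe40 slightly higher in Eed cKO A. Fosl1, another Fos family subunit of AP-1, was on the other side: it had 50 and 46 counts in the A and B libraries of Eed cKO, against 80 and 65 in those of WT, and did not pass (limma, log2 fold change -0.57 ± 0.21 (SE), adjusted p = 0.172). The groups of Fosl1 did not overlap, which also held for 56.8% of all genes tested in either direction. The Poisson intervals of its Eed cKO A (37.1 to 65.9 counts) and WT B (50.2 to 82.8 counts) did overlap. A direction of Fosl1 apart from the other Fos family genes was therefore not shown. Of 25 other effectors and feedback genes, 1 passed as higher, 0 as lower in limma and 24 did not pass (median -0.04). Dusp5, a nuclear phosphatase that inactivates ERK, averaged 611 ± 166 in Eed cKO and 277 ± 66.3 in WT (SD, n = 2 each; limma, log2 fold change 1.13 ± 0.23 (SE), adjusted p = 0.0462). At an unadjusted p under 0.05 there were 5 of 21 and 5 of 25 genes in these lists, against 24.8% of all genes tested, and the calls stand beside 3.54% higher and 2.9% lower among all genes. With Eed cKO A or Eed cKO B left out, the limma adjusted p-values were 0.240 and 0.251 for Fosl2, 0.261 and 0.251 for Bhlhe40, and 0.329 and 0.251 for Dusp5, and that of Dusp5 was 0.0976 both without WT B and with no filter on low counts.

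Of 18 late response genes, 1 passed as higher, 1 as lower and 16 did not pass (median -0.03). Among all genes tested, 3.54% passed as higher and 2.9% as lower. At an unadjusted p under 0.05 there were 8 of 18, against 24.8% of all genes tested. The groups did not overlap in 8 on the higher and 7 on the lower side, against 56.8% of all genes tested in either direction. Cdkn1a, a cyclin-dependent kinase inhibitor that is also a target of p53, averaged 1295 ± 82.9 normalized counts in Eed cKO and 593 ± 111 in WT (SD, n = 2 each; limma, log2 fold change 1.14 ± 0.14 (SE), adjusted p = 0.0131). Scg2, a secretory granule protein and neuropeptide precursor, fell to 3754 ± 168 in Eed cKO, against 4839 ± 139 in WT (SD, n = 2 each; limma, log2 fold change -0.37 ± 0.07 (SE), adjusted p = 0.0409). Cdkn1a thus moved opposite to Scg2 within the list. Of 33 upstream kinases, calcium effectors and transcription factors, 1 passed as higher, 1 as lower and 31 did not pass. These calls too stand beside 3.54% higher and 2.9% lower among all genes tested. The median was -0.09 and 24 of 33 were below 0, against 7589 of 15020 among all genes tested. At an unadjusted p under 0.05 there were 14 of 33, against 24.8% of all genes, and the groups did not overlap in 20 on the lower and 2 on the higher side, against 56.8% of all genes in either direction. Camkk1, which activates calcium/calmodulin-dependent kinases, fell to 1345 ± 45.2 in Eed cKO, against 2067 ± 176 in WT (SD, n = 2 each; limma, log2 fold change -0.62 ± 0.08 (SE), adjusted p = 0.0152). Rps6ka4, a kinase of CREB and histone H3, averaged 871 ± 23.6 in Eed cKO and 661 ± 12.8 in WT (SD, n = 2 each; limma, log2 fold change 0.40 ± 0.07 (SE), adjusted p = 0.0361). DESeq2 gave Rps6ka4 an adjusted p of 0.0733. With Eed cKO A or Eed cKO B left out, the limma adjusted p-values were 0.254 and 0.242 for Cdkn1a, 0.328 and 0.300 for Scg2, 0.241 and 0.266 for Camkk1, and 0.272 and 0.314 for Rps6ka4. Without WT B they were 0.0703 for Scg2 and 0.0766 for Rps6ka4, and without WT A 0.0504 for Rps6ka4. With no filter on low counts they were 0.0706 for Scg2 and 0.0602 for Rps6ka4.

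Of 12 partners and corepressors of the 10 proteins, 11 were tested, of which 2 passed as higher, 0 as lower in limma and 9 did not pass. Among all genes tested, 3.54% passed as higher and 2.9% as lower. The median of the 11 was 0.11, and 5 of 11 genes had an unadjusted p under 0.05, against 24.8% of all genes. Arnt2, the dimerization partner of Npas4 in neurons, averaged 4588 ± 259 normalized counts in Eed cKO and 2748 ± 192 in WT (SD, n = 2 each; limma, log2 fold change 0.74 ± 0.08 (SE), adjusted p = 0.0115). Rxrg, a retinoid X receptor of the kind that Nr4a1 can pair with, averaged 211 ± 58.5 in Eed cKO and 93.9 ± 9.52 in WT (SD, n = 2 each; limma, log2 fold change 1.13 ± 0.22 (SE), adjusted p = 0.0412). Both rose in Eed cKO, whereas the counts of Npas4 and of Nr4a1 overlapped between the genotypes. With Eed cKO A or Eed cKO B left out, the limma adjusted p-values were 0.226 and 0.238 for Arnt2 and 0.302 and 0.221 for Rxrg, and those of Rxrg were 0.0792 without WT A, 0.0633 without WT B and 0.0828 with no filter. With either Eed cKO library left out, limma called 0 of all genes tested, although 2168 and 1991 had an unadjusted p under 0.05; edgeR called 127 with Eed cKO A left out and 73 with Eed cKO B left out.

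**Figure D5:**
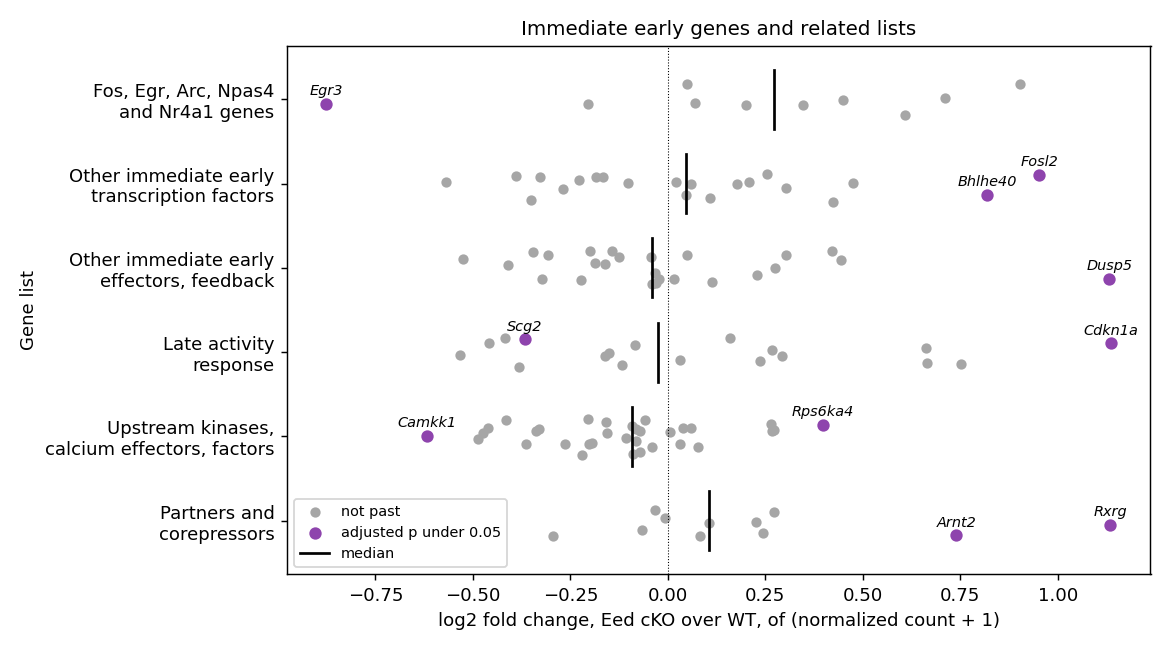
Log2 fold change, Eed cKO over WT (x axis), of each tested gene in the list of 10 and in 5 related lists (y axis); large purple points passed an adjusted p of 0.05, grey points did not, and black bars are list medians. The medians lie between -0.09 and 0.27, and the named points beyond 0.7 are Fosl2, Bhlhe40, Dusp5, Cdkn1a, Arnt2 and Rxrg on the right and Egr3 on the left.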

How the data were processed

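RNA-seq of dentate gyrus from 2 Eed cKO and 2 WT mice was available as 1 table of 18042 genes, with groups taken from the sample titles. Per the submitters' processing notes, the tools were HISAT2 2.1.0 and DESeq2 1.2.0 and the build GRCm38. How reads were counted, on which strand and over which annotation is not given in the sources used here. The authors deposited, per the file headers, the normalized mean signal of each group, the log2 fold change between them and its SE, the Wald score, and p-values before and after adjustment. A group's deposited signal averages 2 size-factor-normalized counts, and whole read counts of both libraries were recovered from its steps for 100% of genes (tolerance 1e-08). Which replicate number a recovered library carries is unknown.

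The test was limma 3.58.1 (R 4.3.3) on log2(normalized count + 1) with its variance trended on intensity. Genes needed 10 or more normalized counts in 2 or more libraries. Benjamini-Hochberg adjustment was over 15020 genes, with genotype as the only term and 4.00 prior degrees of freedom. p-values are two-sided and weigh the difference between group means against the spread between these libraries, moderated across genes. Fold changes on this scale understate the change of low genes. Alternatives were edgeR 4.0.16 quasi-likelihood, DESeq2 1.42.0, voom, TMM scaling, pseudocounts of 0.5 and 5, a minimum of 50, no minimum, and each library left out. The fits of limma, edgeR and DESeq2 were also run on simulated counts, and that of voom was not. TPM used exon lengths of GENCODE M21, found for 18030 genes, and their sum covers the listed genes. Poisson intervals cover counting error only.

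The members and lists were chosen with earlier results of these data known. Genes named were the 10 members, Eed, for each list the genes past the threshold, at most 3 and by rising p, and the 5 nearest profiles. Prox1, Xist, Ddx3y, Ttr, Prdx2 and Fosl1 were named beside a result after their values were seen.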

Additional observations from a re-analysis of the deposited data

How the results depend on the processing

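Of 160 values of the 10 genes under alternatives, 142 kept their direction and side of the threshold. Fos passed in DESeq2, and the call of Egr3 was lost with no filter in limma, and without either Eed cKO library in limma and in edgeR. The sign turned for 4 genes when a library was left out: Egr1 (log2 fold change -0.12 without Eed cKO A, -0.070 and -0.054 without WT A), Egr4 (-0.13 to -0.12), Arc (0.11 to 0.12) and Npas4 (-0.13 and -0.11 without Eed cKO A, -0.079 and -0.040 without WT B). It also turned for 4 nearest profiles without Eed cKO A: Rps6ka2 (-0.0085 to -0.0020), Ddc (-0.016 to -0.0097), Abcc10 (-0.074 to -0.068) and Rps4l (-0.013 to -0.0063). Such small values follow in part from their choice near a profile with Eed cKO B level with WT.

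Against 967 genes past the threshold, no filter gave 473, and leaving out 1 library gave 0 to 1614 (in edgeR, 127 with Eed cKO A left out and 73 with Eed cKO B left out). Of the 10 genes, 1 passed, against 2 in DESeq2, 0 with no filter and 0 to 1 with a library left out. Counts past the threshold in the lists were 2 for transcription factors (0 to 3 with a library left out), 1 for effectors (0 with no filter, 0 to 2 with a library left out) and 2 for late response genes (5 in DESeq2, 1 with no filter, 0 to 7 with a library left out). They were 2 for upstream genes (5 in DESeq2, 4 in limma-voom, 1 with no filter, 0 to 7 with a library left out) and 2 for partners (1 with no filter, 0 to 2 with a library left out). TMM differed from the size factors by at most 0.0056 on the log2 scale.

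No paired analysis was possible because the deposited columns are group means and the recovered libraries carry no replicate number. With a library left out, the lone library of its group is assumed to vary like the other group. With 2 libraries a group, the 95% interval of the log2 fold change of Egr2 spanned -0.05 to 1.85, and at the depth of Egr2 counting error alone spans the gap between Eed cKO B and WT B.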
